A study of Mus musculus with 4 samples.

Results

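The nuclear genes of respiratory complex I were followed in whole hearts of mice that overexpressed the T-box transcription factor Tbx20 in cardiomyocytes and in control hearts. All symbols of the series-wide expression sheet that begin with Nduf were taken, which gave 45 genes of 23439 distinct symbols used. Of these, 36 encode subunits of complex I and 7 encode assembly factors (the Ndufaf genes), and the remaining 2, Ndufa4 and Ndufa4l2, carry the name but are described apart. Control hearts had the genotype alphaMHCMerCreMer+/-, that is, a Cre under the cardiomyocyte promoter of alpha myosin heavy chain. The overexpressing hearts, called Tbx20_OE here, had the genotype alphaMHCMerCreMer+/-;CAGCATTbx20, so they carried the same Cre together with an inducible Tbx20 transgene. Samples of both groups are listed with induction at 8 weeks of age. The hearts were taken 4 weeks later, at 12 weeks. There were 2 libraries of total RNA per group, each from a heart of its own. The RNA came from whole hearts, not from isolated cardiomyocytes, so fewer cells of a type and less RNA per cell cannot be told apart.

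Complex I is the entry point of the mitochondrial respiratory chain. Its N module takes electrons from NADH, its Q module passes them through iron-sulfur clusters to ubiquinone, and its membrane arm pumps protons across the inner membrane. A catalytic core is conserved from bacteria, with its peripheral part encoded in the nucleus and its membrane part in mitochondrial DNA, and supernumerary subunits surround it. Assembly factors bind intermediates while the modules are built and are absent from the finished enzyme. The beating heart depends on this chain for most of its ATP, and its muscle is packed with mitochondria.

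The authors gave expression as FPKM, which counts fragments relative to transcript length and to all mapped fragments, so the number of reads behind each value is unknown. Tbx20 itself was at 6.99 and 4.58 FPKM (control) against 11.03 and 16.4 FPKM (Tbx20_OE), with the groups not overlapping and a limma adjusted p = 0.848. Control replicate 2 differed most from the rest, with a Pearson correlation with them between 0.927 and 0.957 over 10513 genes against 0.981 to 0.982 among the others. The 5 atrial muscle markers, all highest there, summed to 3698 FPKM in that library and 128 FPKM in the other control, against 239 and 132 FPKM in Tbx20_OE, where Sln and Mybphl were at 0 in replicate 2. Their part in the results below was not tested. Markers of mesothelium and platelets (2 of 2 each) and of red cells (2 of 3) were also highest in control replicate 2, those of fibroblasts for 1 of 3, and those of endothelium and macrophages for none of 3 each. The 7 ventricular cardiomyocyte markers summed to between 36453 and 42503 FPKM in all 4 libraries. Singly they split, with 4 of 7 highest and 3 of 7 lowest in control replicate 2. The sum therefore does not show that each marker was steady.

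Complex I subunits were among the most abundant messages of the expression sheet, which holds 0 symbols that begin with mt-Nd. The 36 subunits together held 5.56% and 6.67% of all FPKM in the sheet in the control libraries. In the Tbx20_OE libraries they held 5.79% and 5.13%. Of the 100 genes with the highest mean FPKM, 16 were Nduf genes. The median subunit had a mean level of 674 FPKM over the 4 libraries, against 6.21 FPKM for the median gene tested. The subunit with the highest mean level was Ndufa3, a small subunit of the proximal membrane arm, at 1788 and 2551 FPKM (control) against 2093 and 1616 FPKM (Tbx20_OE). The lowest was Ndufa11, a membrane subunit at the contact with complex III in the respiratory supercomplex, at 113 and 154 FPKM (control) against 135 and 111 FPKM (Tbx20_OE). Although each subunit is present as a single copy in the enzyme, apart from the acyl carrier protein Ndufab1, mean levels spanned 15.7-fold. Assembly factors lay far lower, at mean levels of 9.91 to 43.8 FPKM, and the lowest subunit still stood 2.92-fold above the highest assembly factor. The ratio of the 2 medians was 41.8.

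**Figure D1:**
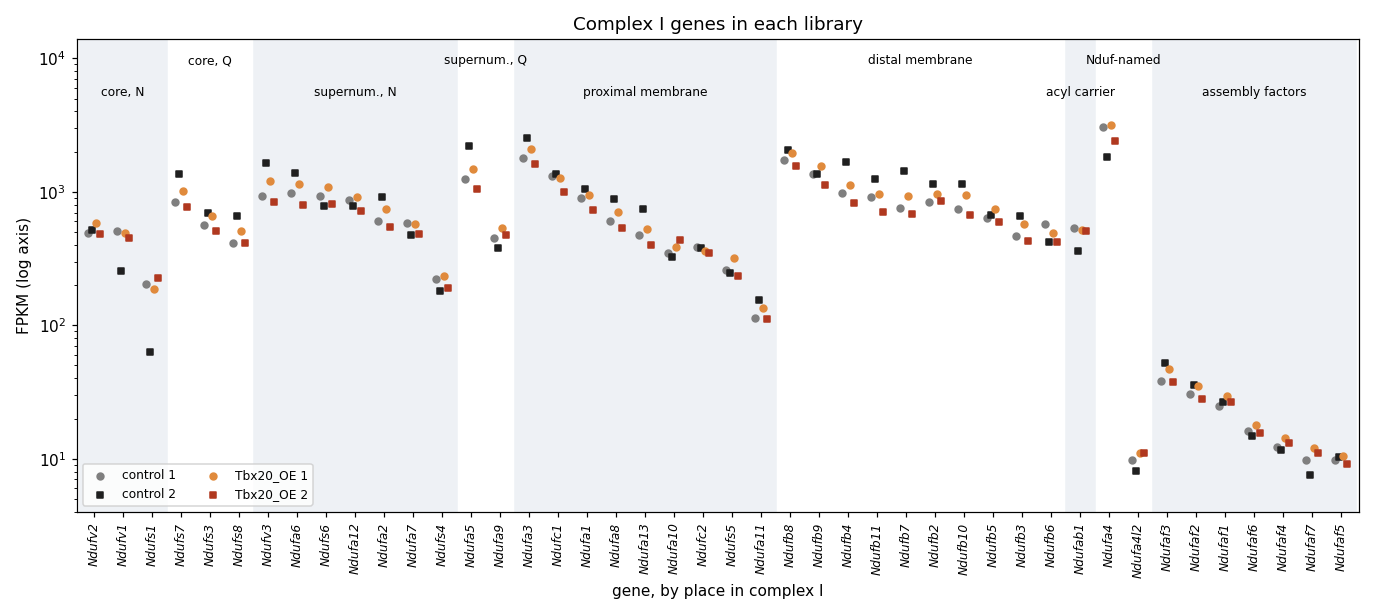
FPKM of 44 of the genes in each of the 4 libraries (log axis), ordered by place in the enzyme and by mean level. Subunits lie between 62.6 and 2551 FPKM and assembly factors between 7.61 and 52.3 FPKM, and over all 36 subunits, 1 of them not drawn, control 2 is the highest for 20 and the lowest for 9.

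Promoters from RefSeq (GRCm38.p6, 250 bases before to 50 after the start) were matched for 39 of the 45 genes and searched on both strands for motifs of factors known to act on respiratory genes. The palindromic NRF1 motif, capitalised in the Ndufaf4 promoter printed here, was present in 3 of 39 promoters (1.07% of promoters of all 27025 genes), the GABPA motif CCGGAAGT in 1 (4.31%), the YY1 motif AAGATGGC in 7 (3.19%) and the estrogen-related receptor motif AAGGTCA in 3 (5.38%). Each of these 14 genes had a single kind of motif. The T-box motif AGGTGTGA was present in 0 of 39 and in 1.48% of all promoters, which says only that these letters are not in the windows. A match describes the sequence and shows no binding. The promoters below are shown because they belong to genes with contrasting values, namely Ndufv1 and Ndufb4 near opposite ends of the fold changes, the core gene Ndufs7 and the assembly factor gene Ndufaf4. Capitals mark a motif, which is NRF1 in Ndufaf4, YY1 in Ndufs7 and the estrogen-related receptor motif in Ndufb4, and the Ndufv1 window holds none of the 5. They lie at chr19:4012706-4013005 (minus strand), chr16:37654319-37654618 (minus strand), chr10:80249199-80249498 (plus strand) and chr4:24897833-24898132 (plus strand), in the order printed.
Ndufv1: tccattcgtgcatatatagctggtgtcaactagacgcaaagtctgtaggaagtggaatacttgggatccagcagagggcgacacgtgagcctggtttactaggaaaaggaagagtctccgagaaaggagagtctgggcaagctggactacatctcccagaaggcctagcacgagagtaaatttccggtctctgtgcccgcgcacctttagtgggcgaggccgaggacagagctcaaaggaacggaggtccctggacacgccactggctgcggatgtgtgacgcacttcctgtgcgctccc
Ndufb4: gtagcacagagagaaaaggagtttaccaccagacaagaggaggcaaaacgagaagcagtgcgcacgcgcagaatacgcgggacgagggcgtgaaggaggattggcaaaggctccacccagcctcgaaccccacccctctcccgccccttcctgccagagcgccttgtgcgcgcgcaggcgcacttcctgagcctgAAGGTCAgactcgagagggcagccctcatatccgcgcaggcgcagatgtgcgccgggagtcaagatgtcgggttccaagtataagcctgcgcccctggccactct
Ndufs7: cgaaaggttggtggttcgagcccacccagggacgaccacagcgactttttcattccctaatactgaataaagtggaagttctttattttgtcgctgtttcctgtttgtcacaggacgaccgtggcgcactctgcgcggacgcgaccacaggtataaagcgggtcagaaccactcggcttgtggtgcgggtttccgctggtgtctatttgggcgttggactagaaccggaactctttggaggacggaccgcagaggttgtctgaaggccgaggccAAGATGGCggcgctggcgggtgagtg
Ndufaf4: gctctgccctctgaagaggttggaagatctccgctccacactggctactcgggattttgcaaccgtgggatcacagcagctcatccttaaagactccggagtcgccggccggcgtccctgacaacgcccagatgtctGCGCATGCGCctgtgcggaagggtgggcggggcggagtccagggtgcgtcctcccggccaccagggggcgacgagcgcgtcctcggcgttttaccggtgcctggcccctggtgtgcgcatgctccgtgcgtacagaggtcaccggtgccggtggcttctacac

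No Nduf gene passed the comparison of Tbx20_OE with control hearts. None of the 45 genes passed the limma test adjusted over 10513 genes (0 at an unadjusted p under 0.05 as well), where 0.019% of all genes passed, and 1.52% at an unadjusted p under 0.05. None passed either with the replicate number as a block or without Tbx20_OE replicate 2, where 0.0571% of all genes passed each time. Fold changes here are on the log2(FPKM + 1) scale. Of the 36 subunits, 11 had a positive and 25 a negative log2 fold change, while 71.1% of all tested genes had a positive one. After median centring 6 subunits were positive, against 48.2% of all genes, and after centring within GC bins 5, against 47.7%. With quantile normalization 16 were positive, against 50.7%. With a library left out, the count was 13 without control replicate 1 (66.3% of all genes), 21 without control replicate 2 (68.3%), and 6 or 19 when the first or the other Tbx20_OE library was left out (65.7% and 75.8%). The median log2 fold change was -0.12 for the subunits and 0.15 for all tested genes. The subunit median stayed below 0 under every scaling tried, but was 0.02 without control replicate 2 and 0.03 without Tbx20_OE replicate 2. Both overexpressing hearts exceeded both controls for 2 subunits, where 28.1% of all genes did so, and lay below both for 2 others, where 4.77% did so. Only 1 subunit, Ndufs1, differed by at least 1.5-fold between the groups, against 6.78% of all genes in either direction. An exact two-sided permutation test of 2 against 2 libraries cannot go below p = 0.333.

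The spread inside a group was as large as the difference between groups. For 33 of the 36 subunits the gap between the libraries of at least 1 group exceeded the log2 fold change, which held for 83.0% of all genes. The median gap between the controls was 0.45 and that between the Tbx20_OE libraries 0.36 on the log2 scale, while the median size of the fold change was 0.22. Tbx20_OE replicate 2 was below replicate 1 of the same genotype for 34 of 36 subunits, against 49.9% of all genes. Control replicate 2 gave the highest value for 20 subunits and the lowest for 9, against 25.5% and 54.3% of all genes.

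**Figure D2:**
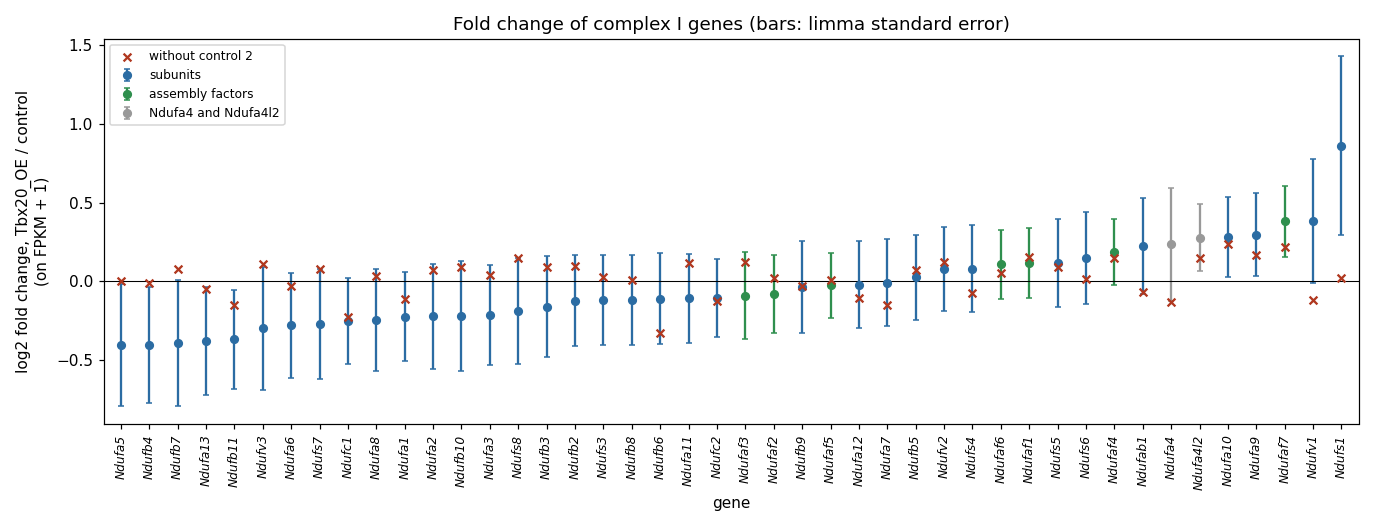
Log2 fold change of 44 Nduf genes (points) with its limma standard error (bars), and the same value without control 2 (crosses). Values run from -0.41 for Ndufa5 to 0.86 for Ndufs1, and without control 2 that of Ndufs1 was 0.02.

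In the N module core, the electron input of the enzyme, 2 of 3 genes had their lowest value in control replicate 2. Ndufs1, the largest core subunit and carrier of several iron-sulfur clusters, lies on chromosome 1 from 63143596 to 63176833 (GENCODE M21, GRCm38, minus strand). It was at 204 and 62.6 FPKM (control) against 188 and 228 FPKM (Tbx20_OE). The groups overlapped, and a single library was low, at 30.7% of the other control. Its log2 fold change was 0.86 with standard error 0.57, the largest of the 45 genes in size (limma, adjusted p = 0.848). Without control replicate 2 it was 0.02 (adjusted p = 1), and without control replicate 1 it was 1.71 (adjusted p = 0.0191), where 13.6% of all genes passed and the remaining control is taken to vary as the Tbx20_OE pair does. Of the 10513 genes, 57 lay as far or farther below the other 3 libraries in control replicate 2 as Ndufs1 did, which is 0.542%. An exon of Ndufs1 overlaps the antisense transcript Ino80dos, and since the strand setting is unknown here, reads of the pair cannot be told apart.

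Ndufv1, which binds NADH and its flavin cofactor, lies on chromosome 19 from 4007384 to 4012806. It was at 512 and 254 FPKM (control) against 489 and 454 FPKM (Tbx20_OE). Again control replicate 2 alone was low, and the other 3 libraries lay close together. The log2 fold change was 0.38 (standard error 0.39), and -0.12 without control replicate 2. Ndufv2, the partner of Ndufv1 with an iron-sulfur cluster of its own, did not share the low value. Its levels were 488 and 519 FPKM (control) against 588 and 480 FPKM (Tbx20_OE). Ndufv1 therefore stood at 49.0% of Ndufv2 in control replicate 2 and at 105%, 83.2% and 94.6% in control replicate 1 and the Tbx20_OE libraries.

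In the Q module core, Ndufs7, Ndufs8 and Ndufs3 were highest in control replicate 2. Ndufs7, which carries the iron-sulfur cluster nearest to ubiquinone, was at 841 and 1367 FPKM (control) against 1017 and 773 FPKM (Tbx20_OE). Its control replicate 2 value was the highest of the 4, and the groups overlapped. Ndufs8, another iron-sulfur subunit, had the same order of libraries, at 413 and 662 FPKM (control) against 512 and 410 FPKM (Tbx20_OE). Ndufs3, a scaffold of the Q module, varied less, at 565 and 692 FPKM (control) against 654 and 506 FPKM (Tbx20_OE). Log2 fold changes of these 3 genes ran from -0.27 to -0.12, and all 7 core genes had overlapping groups.

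**Figure D3:**
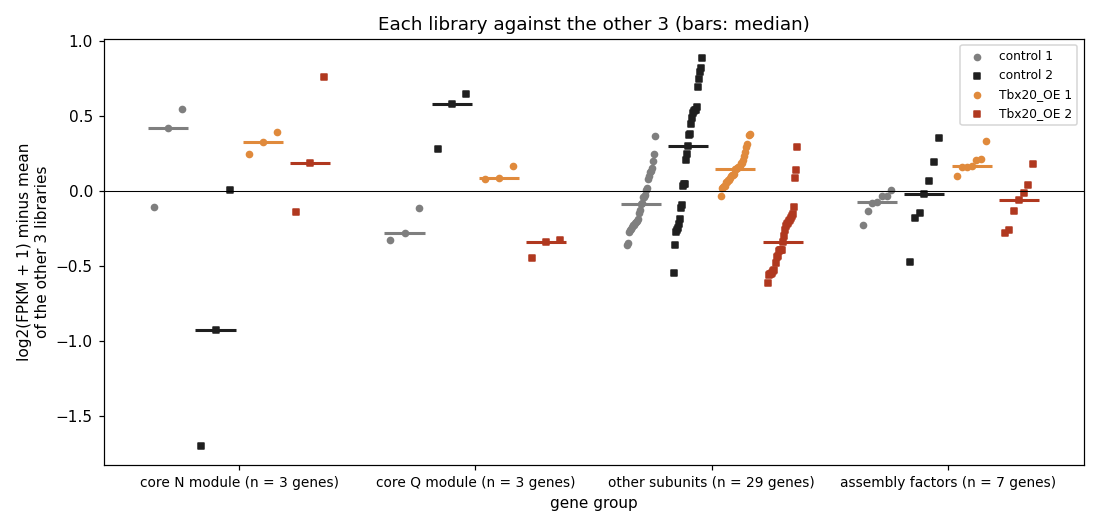
Difference of each library from the mean of the other 3 on the log2(FPKM + 1) scale, for 3 core N module genes, 3 core Q module genes, 29 other subunits and 7 assembly factors (points are genes, bars are medians). Control 2 has a median of -0.93 for the core N module and 0.30 for the other subunits, and Tbx20_OE 2 has a median of -0.34 for the other subunits.

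Most of the subunits with a negative log2 fold change, 22 of 25, were supernumerary, as were 29 of all 36 subunits. Of the 29 supernumerary subunits, 7 had a positive and 22 a negative log2 fold change, with a median of -0.12 over all libraries and 0.01 without control replicate 2. The most negative was Ndufa5, a Q module subunit, at 1248 and 2204 FPKM (control) against 1495 and 1044 FPKM (Tbx20_OE), a log2 fold change of -0.41 with standard error 0.39. Ndufb4 of the distal membrane arm was at 973 and 1678 FPKM (control) against 1124 and 828 FPKM (Tbx20_OE) (log2 -0.41, standard error 0.37). Ndufb7, from the same arm, was at 753 and 1443 FPKM (control) against 926 and 683 FPKM (Tbx20_OE) (log2 -0.39, standard error 0.40). In all 3 genes control replicate 2 was the highest library and Tbx20_OE replicate 2 the lowest. Without control replicate 2 their log2 fold changes were 0.0017, -0.01 and 0.08. Limma adjusted p-values of the 3 were 0.848 each.

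That order of libraries recurred through the enzyme. From the highest to the lowest value it was control replicate 2, Tbx20_OE replicate 1, control replicate 1 and Tbx20_OE replicate 2, and it held for 18 of 36 subunits against 8.61% of all tested genes. It was looked at after the values had been seen. Among the genes of complexes II to V, from a list of 45, it held for 18. The gap between the controls in the 18 subunits ranged from 0.22 to 0.94 on the log2 scale. Their median transcript length was 892 bases, against 1347 bases for the other 18 subunits, and their median GC content was 53.7% against 48.6%. In control replicate 2 the deviation from the other 3 libraries had a Spearman rho across the 36 subunits of 0.43 with GC content and -0.35 with transcript length. Over the 10463 tested genes with a transcript these were 0.46 and -0.22, and in Tbx20_OE replicate 2 the signs were opposite, with -0.41 and 0.46 across the subunits. These describe genes that share a library and are not independent of each other, and the part of GC content and length in the results was not tested.

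By position in the enzyme, most membrane arm genes were highest in control replicate 2, as were 20 of all 36 subunits. So were 10 of 15 complex IV genes, against 25.5% of all tested genes. In the distal membrane arm 1 of 10 subunits had a positive log2 fold change and 7 of 10 were highest in control replicate 2. In the proximal membrane arm it was 2 of 9 positive and 6 of 9 highest in that library. Of the supernumerary N module genes 2 of 7 were positive and 3 of 7 highest in control replicate 2. Of the supernumerary Q module genes it was 1 of 2 each. With control replicate 2 left out, 6, 5, 3 and 2 of these were positive, in the same order. For Ndufab1, the acyl carrier protein that serves both the enzyme and mitochondrial fatty acid synthesis, control replicate 2 was the lowest library, at 539 and 357 FPKM (control) against 518 and 510 FPKM (Tbx20_OE).

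Both Tbx20_OE libraries lay above both controls for 2 of the 36 subunits, against 28.1% of all tested genes. They lay below both controls for 2 others, against 4.77%. Ndufa10, a membrane arm subunit related to nucleoside kinases, was at 347 and 327 FPKM (control) against 388 and 433 FPKM (Tbx20_OE), a log2 fold change of 0.28 with standard error 0.25. Ndufa9, at the joint of the peripheral and membrane arms, was at 451 and 379 FPKM (control) against 539 and 479 FPKM (Tbx20_OE) (log2 0.29, standard error 0.26). Both control libraries lay below both Tbx20_OE libraries for these genes. Ndufc1 was at 1311 and 1363 FPKM (control) against 1263 and 996 FPKM (Tbx20_OE) (log2 -0.25, standard error 0.28). Ndufc2, its neighbour in the membrane arm, was at 387 and 377 FPKM (control) against 361 and 347 FPKM (Tbx20_OE) (log2 -0.11, standard error 0.25). In both of these the highest Tbx20_OE value was close beneath the lowest control value. None of the 4 passed the limma test over all genes (adjusted p from 0.848 to 0.916).

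**Figure D4:**
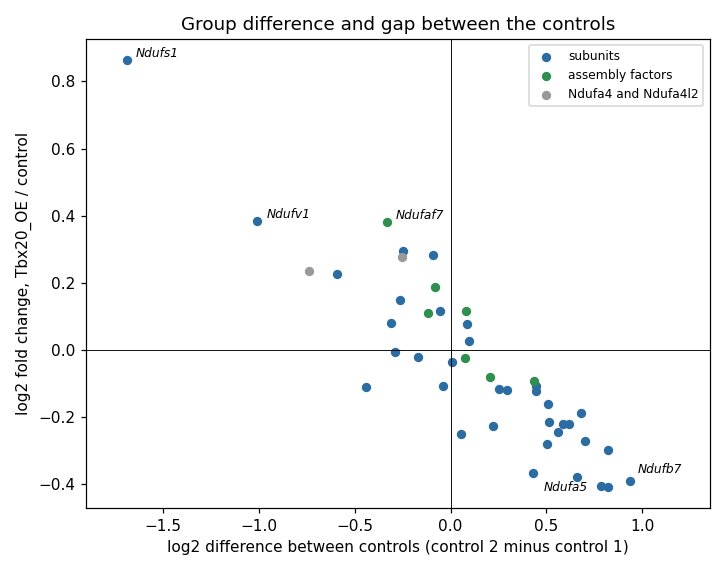
Log2 fold change between the groups against the log2 difference between the 2 control libraries, for 44 Nduf genes. Both axes contain the control values, so they are not independent, and Ndufs1 lies alone at the upper left, with a control difference of -1.69 and a log2 fold change of 0.86.

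None of the 7 assembly factors passed the test, and their direction depended on the scaling. With the values as deposited 4 of 7 had a positive log2 fold change and the median was 0.11, but it was -0.05 (2 positive) after median centring, -0.06 (2 positive) with quantile normalization and -0.14 (1 positive) after centring within GC bins. For 3 of 7 both overexpressing hearts exceeded both controls, where 28.1% of all genes did so. Without control replicate 2 all 7 were positive, where 68.3% of all genes were, and without Tbx20_OE replicate 2 all 7 were positive, where 75.8% of all genes were. Ndufaf7, a methyltransferase that acts early in assembly, had the smallest unadjusted p of the 45 genes. It was at 9.83 and 7.61 FPKM (control) against 12.1 and 11.1 FPKM (Tbx20_OE), without overlap. The log2 fold change of Ndufaf7 was 0.38 with standard error 0.23 (limma, adjusted p = 0.848), and it ranged from 0.22 to 0.55 when each library was left out in turn and was 0.086 after centring within GC bins.

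Ndufaf3 and Ndufaf4 act together on the Q module. Ndufaf3 was at 38.5 and 52.3 FPKM (control) against 47.3 and 37.3 FPKM (Tbx20_OE). Ndufaf4 was at 12.3 and 11.6 FPKM (control) against 14.4 and 13.1 FPKM (Tbx20_OE), without overlap. Their log2 fold changes were -0.09 and 0.19. Ndufaf5, which hydroxylates Ndufs7, was at 9.72 and 10.3 FPKM (control) against 10.5 and 9.15 FPKM (Tbx20_OE). Ndufaf6, another early factor, was at 16.2 and 14.8 FPKM (control) against 18.0 and 15.6 FPKM (Tbx20_OE). Both genes had overlapping groups and log2 fold changes of -0.03 and 0.11. Ndufaf1, of the complex that assembles the membrane arm with Ecsit and Acad9, was at 25.0 and 26.5 FPKM (control) against 29.3 and 26.6 FPKM (Tbx20_OE). Its groups did not overlap, although the nearest values differed little, and the log2 fold change was 0.12. Ndufaf2, a relative of Ndufa12 that acts late in assembly, was at 30.8 and 35.6 FPKM (control) against 35.0 and 27.9 FPKM (Tbx20_OE). RefSeq gives the symbol 1810043H04Rik of the sheet as a synonym of Ndufaf8, the partner of Ndufaf5, and it was at 81.5 and 99.4 FPKM (control) against 87.7 and 68.5 FPKM (Tbx20_OE).

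Ndufa4 and Ndufa4l2 were described apart. Ndufa4 was named as a complex I subunit and is now known as a subunit of complex IV, and it had the highest level of all Nduf genes, at 3044 and 1824 FPKM (control) against 3168 and 2425 FPKM (Tbx20_OE). The groups overlapped, and control replicate 2 was the lowest library (log2 0.23, standard error 0.36). Ndufa4l2, its hypoxia-inducible relative, was at 9.85 and 8.09 FPKM (control) against 11.03 and 11.1 FPKM (Tbx20_OE). Both overexpressing hearts exceeded both controls, as they did for 28.1% of all tested genes (log2 0.28, standard error 0.21, limma adjusted p = 0.848). An exon of Ndufa4l2 overlaps an exon of Shmt2 on the opposite strand, and the strand setting is unknown here. The mean level of Ndufa4 was 261-fold that of Ndufa4l2.

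Other genes of the respiratory chain were taken from gene lists. Of 11 tested complex I assembly factors outside the Ndufaf names, 8 had a positive log2 fold change, near the 71.1% of all tested genes. The limma test was passed by 0 of them and by 0.019% of all genes. Their median was 0.23, then 0.05 without control replicate 2 and -0.01 after centring within GC bins. For all tested genes these medians were 0.15, 0.08 and -0.01. Among 45 genes of complexes II to V, 19 were positive, against 71.1% of all tested genes, and 0 passed. Their median was -0.08 beside -0.12 for the complex I subunits, and -0.03 beside 0.02 without control replicate 2. With quantile normalization the median of the 45 was 0.01 and that of the subunits -0.10. Control replicate 2 was highest for 21 and lowest for 15 of the 45, against 25.5% and 54.3% of all tested genes. The mitochondrial-encoded subunits were not analysed here, since the sheet holds 0 symbols that begin with mt-Nd.

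The authors' deposited table of their cuffdiff comparison held all 45 genes and called 0 of them significant, where 0.234% of its tested genes were called. A negative log2 fold change stood beside 35 of the 45 genes in the authors' deposited table, where 51.2% of tested genes had one, and a positive one beside 10. By class, 8 of 36 subunits and 1 of 7 assembly factors were higher in the authors' deposited table, with an assembly factor median of -0.16 against 0.11 in the limma fit. For 36 of 45 genes the sign was the same as in the limma fit of the same libraries. For Ndufs1 the authors' deposited table gave 244 FPKM (control) and 321 FPKM (Tbx20_OE) (log2 0.40), and it had the highest log2 fold change of the Nduf genes there too. Ndufa5 was again the lowest, at 3040 and 1915 FPKM in the authors' deposited table (log2 -0.67, cuffdiff p = 0.110, q = 0.999). For both genes these values exceed every library of the same group, as in the Ndufa5 controls at 1248 and 2204 FPKM. FPKM per condition and per library are therefore not on the same scale. The part of this in the differing signs and medians was not tested.

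The 45 genes were spread over 16 chromosomes, with 2 of them, Ndufa1 and Ndufb11, on the X chromosome. Their longest coding transcripts ran from 419 to 4371 bases and from 2 to 19 exons. For 16 of the 45 an exon of that transcript overlapped an exon of another gene, on the opposite strand for 14. Ndufa3, Ndufa11, Ndufaf3 and Ndufa4l2 are among those 14. With the strand setting unknown, reads of such pairs cannot be told apart. RefSeq also lists copies named Ndufa11b, Ndufa12-ps, Ndufab1-ps, Ndufb4b, Ndufs5-ps and Ndufs6b, with which the parent genes can share reads, so the levels of those 6 parent genes are uncertain.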

How the data were processed

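Total RNA was extracted with Trizol and sequenced after a standard Illumina library preparation, per the labels' protocols. The submitters' processing notes name the aligner TopHat2 2.0.13, Cufflinks 2.1.1 and mm10. Annotation release, strand setting and depth: not given in the sources used here. Gene levels were deposited as FPKM by the authors, and the same values stood in the files per library for all 45 members, each with the status OK in all 4. The authors' deposited comparison table holds FPKM per condition, log2 fold changes, p-values and q-values, made by cuffdiff 2.1.1 at its defaults per the file headers. Symbols at several loci were taken at the entry with the highest mean, and 4 symbols with a failed estimate and 1 not matched in the files per library were left out.

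Values were analysed as log2(FPKM + 1) for 10513 genes whose mean FPKM reached 1, a filter that all 45 members passed. Groups were compared two-sided by limma 3.58.1 under R 4.3.3, with moderated variances that follow the mean and no covariate, and p-values were adjusted by Benjamini-Hochberg over all genes at 0.05. The fit was also run on simulated data, with independent noise of the same spread in all 4 libraries. That setting has no outlying library, so it says nothing on how control replicate 2 affects the fit. The members and lists were chosen with earlier results of these data known. Named with values of every library were the core subunits, the 3 subunits with the largest change each way, the 3 genes with the smallest p, the subunits with the highest and lowest mean, the assembly factors, Ndufa4 and Ndufa4l2. Of these, 1 gene is not reported here singly or plotted, and it is part of the counts. Ndufa9, Ndufa10, Ndufc1, Ndufc2, Ndufab1 and 1810043H04Rik, and the motifs, were chosen after the values had been seen. Length and GC share were read from the longest coding GENCODE M21 transcript. Alternatives covered the pseudocount, filter, scaling, source of values, limma settings, replicate block and each library left out. Centring in 10 GC bins and a crossed block were added after seeing the data. Summaries and figures used pandas 2.3.3 and matplotlib 3.10.9 under Python 3.11.15.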

Additional observations from a re-analysis of the deposited data

How the results depend on the processing

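Other pseudocounts, filters and limma settings, and values joined by locus, changed no sign of the 20 genes named by rule and no count. With the replicate block 0 of 45 genes were called (6 of all genes). Deviations of the libraries numbered 1 correlated at -0.45 over 10513 genes, and with the numbers crossed 0 of 45 were called (30 of all genes). Positive subunits numbered 6 after median centring and 5 after GC-bin centring, and positive assembly factors 2 after median centring, 2 with quantile normalization and 1 after GC-bin centring, with medians of -0.052, -0.057 and -0.14. After median centring, quantile normalization and GC-bin centring, subunits with both Tbx20_OE values higher numbered 1, 5 and 0. Those with both lower numbered 5, 3 and 5 in the same order. The shares of all genes under these scalings are not given, so these counts have no background to be read against. The sign turned for Ndufaf1 (-0.045, -0.057 and -0.14 in that order), Ndufaf6 (-0.052, -0.054 and -0.11), Ndufv2 (-0.083 by median and -0.24 by GC-bin centring), Ndufa4 (-0.062) and Ndufaf4 (-0.13) by GC-bin centring, and Ndufs3 (0.017) by quantile normalization. The cause was not tested.

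With each library left out in turn, positive subunits ranged from 6 to 21 and positive assembly factors from 4 to 7. Between 65.7% and 75.8% of all tested genes were positive in these fits. Subunits with both groups apart ranged from 3 to 9 (higher) and from 2 to 26 (lower). The log2 fold change of Ndufs1 ranged from 0.02 without control replicate 2 to 1.71 without control replicate 1. Log2 fold changes ranged from -0.33 to 0.11 for Ndufa11, -0.47 to 0.041 for Ndufa3, -0.14 to 0.60 for Ndufa4, -0.82 to 0.0017 for Ndufa5, -0.24 to 0.078 for Ndufaf2, -0.31 to 0.12 for Ndufaf3, -0.12 to 0.063 for Ndufaf5, -0.86 to 0.078 for Ndufb7, -0.31 to 0.065 for Ndufs3, -0.62 to 0.077 for Ndufs7, -0.53 to 0.15 for Ndufs8, -0.12 to 0.89 for Ndufv1 and -0.069 to 0.22 for Ndufv2. With a library left out, 1 group is a single library, and a single value overlaps the other group less easily than 2 values do. The counts of subunits with both groups apart, up to 26, therefore cannot be set beside those from 2 against 2 libraries. No share of all genes is given for them, so nothing is concluded from these counts. Depth is unknown, so counting error cannot be given.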
